A study of Mus musculus with 6 samples.

Results

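The genes described here are 10 photoreceptor transcription factors, Otx2, Crx, Rorb, Neurod1, Prdm1, Nrl, Nr2e3, Thrb, Rxrg and Sall3. They were taken by symbol from the 32371 genes of a table of RNA-Seq counts, and all 10 were in the table and passed the filter on low counts. The table covers 6 libraries of retinal cells from C57BL/6J mice, 3 from mice that received AAV2-GFP in the vitreous and 3 from mice that received AAV2-Ezh2-Y726D, which encodes a catalytically dead form of the histone methyltransferase Ezh2. Both groups underwent optic nerve crush (ONC) 2 weeks later, and living CD90.2-positive cells were sorted 3 days after ONC. The study's mice were 6 to 10 weeks old and of both sexes unless stated otherwise, and neither the labels nor the main text say whether a library holds the cells of several mice, so P values measure only the spread between these libraries, which may be partly technical. AAV2 given this way transduces retinal ganglion cells (RGCs) and also other retinal cells, and both groups share the viral injection and the crush.

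Photoreceptors form from retinal precursors that express the homeodomain factor Otx2, which switches on its relative Crx. Nrl then directs a precursor to the rod fate and activates Nr2e3, a nuclear receptor that represses cone genes, whereas Thrb and Rxrg, nuclear receptors for thyroid hormone and retinoids, and Sall3, a zinc finger protein, act in cones. Rorb, Neurod1 and Prdm1 act in precursors or in both photoreceptor types, and Prdm1 holds back bipolar genes there. Several of these factors are not confined to photoreceptors in the adult retina. Otx2 and Crx are also made by bipolar cells, Rorb and Neurod1 by amacrine cells, and Prdm1 by lymphocytes and macrophages.

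The upstream sequences of 4 members that changed after Ezh2-Y726D overexpression are shown because members of this group are known to bind and regulate the genes of other members. Each sequence is the 250 bases before a RefSeq start site on GRCm38.p6, 5′ to 3′ on the strand of the gene. Capitals mark matches, on either strand, to TAATCC (the site of Otx2 and Crx), TGCTGA (the core of the site of Nrl), AGGTCA (a nuclear receptor site) or CANNTG (the E-box of Neurod1 and its relatives). The Otx2 and Prdm1 start sites shown lie inside longer gene models of GENCODE vM21.
Crx, chr7:15879956-15880205, minus strand: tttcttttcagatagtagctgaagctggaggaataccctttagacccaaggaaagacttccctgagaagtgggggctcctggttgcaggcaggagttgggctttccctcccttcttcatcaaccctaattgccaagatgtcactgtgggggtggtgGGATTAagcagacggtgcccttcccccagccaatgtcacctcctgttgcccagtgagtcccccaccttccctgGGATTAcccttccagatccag
Otx2, chr14:48667645-48667894, minus strand: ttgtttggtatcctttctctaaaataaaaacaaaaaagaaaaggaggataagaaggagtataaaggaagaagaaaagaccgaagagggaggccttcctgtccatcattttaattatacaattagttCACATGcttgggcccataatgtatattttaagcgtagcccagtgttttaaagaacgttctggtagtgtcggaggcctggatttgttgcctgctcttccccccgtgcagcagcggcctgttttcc
Prdm1, chr10:44458749-44458998, minus strand: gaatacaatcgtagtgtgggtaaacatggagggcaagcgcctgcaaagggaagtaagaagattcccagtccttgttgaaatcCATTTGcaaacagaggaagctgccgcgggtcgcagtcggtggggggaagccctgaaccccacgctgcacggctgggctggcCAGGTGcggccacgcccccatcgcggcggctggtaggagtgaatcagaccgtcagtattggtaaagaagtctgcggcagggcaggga
Rorb, chr19:19111197-19111446, minus strand: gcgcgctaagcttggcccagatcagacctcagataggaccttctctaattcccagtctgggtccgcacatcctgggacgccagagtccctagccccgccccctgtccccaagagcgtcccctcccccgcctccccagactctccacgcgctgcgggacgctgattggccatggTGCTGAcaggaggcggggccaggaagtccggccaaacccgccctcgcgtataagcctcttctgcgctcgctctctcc

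The Crx sequence holds TAATCC 2 times, both on the opposite strand (printed as GGATTA), with first bases at -94 and -21 from the start site. RefSeq gives 15 start sites for 9 of the members, and 3 of these 15 upstream windows hold TAATCC, each from a different gene (Crx, Otx2 at start site 3, and Thrb). Of 32851 upstream windows of the same length over all genes, 6.25% hold it. TGCTGA stands in 3 of the 15 windows (Otx2, Rorb and Neurod1) against 16.1% of all windows, AGGTCA in 2 (Thrb and Rxrg) against 14%, and CANNTG in 10 against 66.2%. In Rorb, TGCTGA begins at -77. A match of 6 letters describes the sequence and does not show that a factor binds there.

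Total counts per library ran from 9333244 to 23782520. The rRNA gene CT010467.1 took 50.9% and 52.2% of the counts of GFP replicates 2 and 3 and 2.55% to 16.1% of the other libraries, so these GFP libraries measured weakly expressed genes with the least precision. Libraries of a group differed by more than counting noise in all 6 pairs (chi-square per degree of freedom 1.49 to 3.03). Ezh2 was at 22.7 to 26.4 CPM (counts relative to the TMM-scaled library size) in GFP and at 65.2 to 65.6 CPM in Ezh2-Y726D. The cells are labelled as RGCs, and Slc17a6 and Thy1, which RGCs express, were present at 14.9 and 35.2 CPM per kb of exon in GFP. Glul (glutamine synthetase of Müller glia), at 895 CPM per kb, and Crx, at 73.0 CPM per kb, were higher per exon length than both. The libraries therefore hold RNA of several retinal cell types, and in such bulk RNA fewer cells of a type and less RNA per cell cannot be told apart.

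Between GFP and Ezh2-Y726D, 5 of the 10 factors differed at an adjusted P under 0.05 in edgeR's quasi-likelihood test, all of them among the 5 shared by rods and cones. Otx2, Crx, Neurod1 and Prdm1 were lower and Rorb was higher. None of the 2 rod regulators (Nrl, Nr2e3) or the 3 cone regulators (Thrb, Rxrg, Sall3) passed, although Nrl and Sall3 did at an unadjusted P under 0.05, and DESeq2 gave 0 of these 5 genes as well. Across all 18138 genes tested, 27.5% passed, 13.9% higher and 13.6% lower, so that 4 lower genes of 10 compare with 13.6% and 1 higher gene of 10 with 13.9%. The median log2 fold change of the 10 was -0.08, against 0.00 for all genes tested, and the range was -0.63 to 0.19. A single member, Prdm1, reached the study's threshold for a DEG, an adjusted P under 0.05 with a fold change over 1.5, as did 8.02% of all genes tested (5.5% lower and 2.52% higher).

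**Figure D1:**
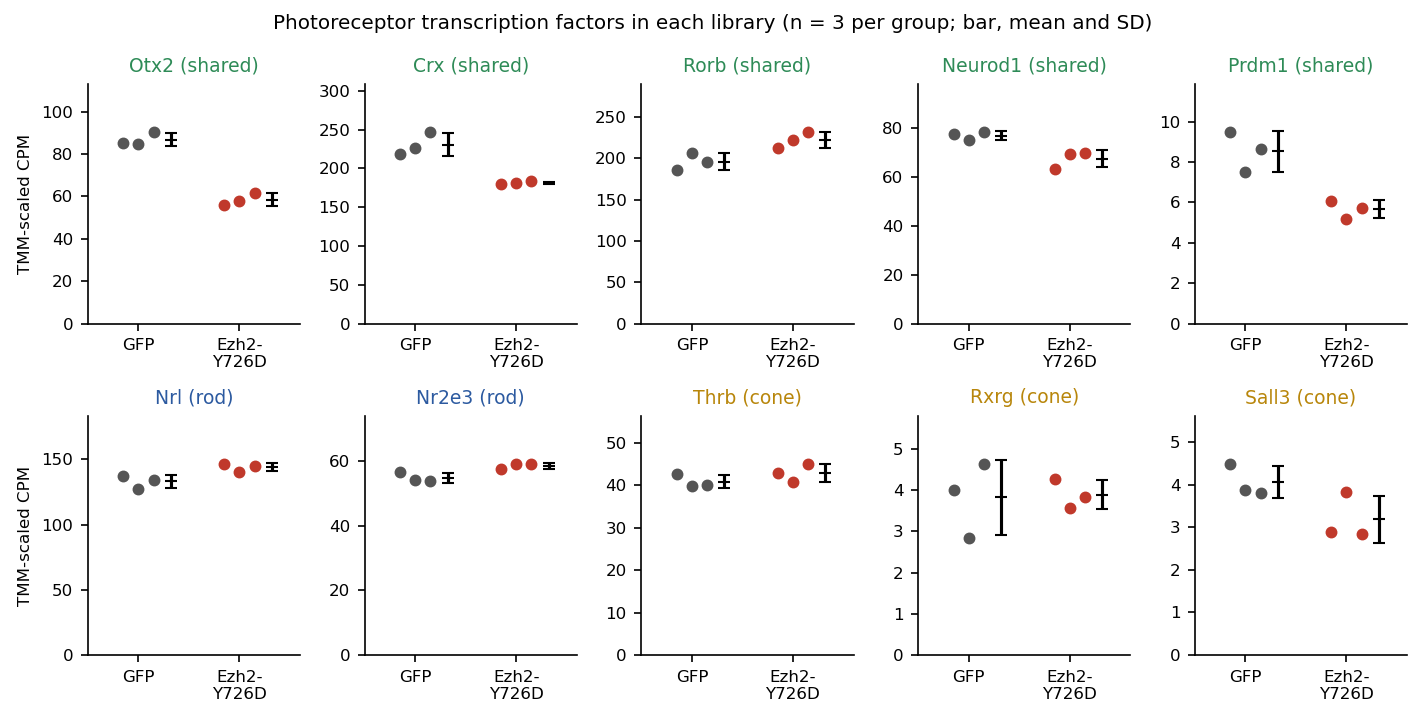
TMM-scaled CPM of each factor (y axis, from 0) in the 3 GFP and the 3 Ezh2-Y726D libraries, 1 point per library, with the mean and SD beside them. Otx2, Crx, Neurod1 and Prdm1 lie lower in every Ezh2-Y726D library than in any GFP library, and Rorb, Nrl and Nr2e3 lie higher. Of all genes tested, 38.6% did not overlap between the groups (18.9% lower and 19.7% higher), and Nrl and Nr2e3 did not pass the test.

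Otx2 (ENSMUSG00000021848, chromosome 14, 48657677 to 48673819, GRCm38) was at 85.3, 84.6 and 90.2 CPM in GFP replicates 1, 2 and 3 and at 55.8, 57.8 and 61.7 CPM in Ezh2-Y726D replicates 1, 2 and 3. The highest Ezh2-Y726D library lay well under the lowest GFP library. Its log2 fold change of -0.56 (SE, its standard error, 0.0503, edgeR adjusted P = 8.19e-10), or a change of -32.3%, had the lowest adjusted P of the 10 factors. Part of its exons (3.98% of the bases) overlaps exons of Otx2os1 and Gm49154, and those reads may belong to either gene.

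Crx (ENSMUSG00000041578, chromosome 7, 15865947 to 15879968), which activates opsins and other photoreceptor genes together with Otx2 and Nrl, was at 218, 227 and 247 CPM in GFP and at 180, 181 and 183 CPM in Ezh2-Y726D. The Ezh2-Y726D libraries were close together and all below GFP, with a log2 fold change of -0.34 (SE 0.0426, edgeR adjusted P = 3.94e-07). In each library the ratio of Otx2 to Crx CPM was 0.391, 0.373 and 0.366 in GFP and 0.309, 0.320 and 0.336 in Ezh2-Y726D. These ratios did not overlap between the groups, so that Otx2 was lower in proportion than Crx in every Ezh2-Y726D library. With 3 libraries against 3, an exact permutation test of a single ratio cannot give a 2-sided P under 0.1, and the ratios are given as a description.

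Neurod1 (ENSMUSG00000034701, chromosome 2, 79452521 to 79456751), a basic helix-loop-helix factor needed for photoreceptor maintenance, was at 77.5, 74.8 and 78.1 CPM in GFP and at 63.3, 69.2 and 69.8 CPM in Ezh2-Y726D. The groups did not overlap, but the difference was smaller than that of Otx2 or Crx, with a log2 fold change of -0.19 (SE 0.0501, edgeR adjusted P = 0.00444). Exons of Cerkl and Gm26755 overlap 13.0% of its exonic bases, and reads there may belong to another gene. The share of its reads that this affects is not known.

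Prdm1 (ENSMUSG00000038151, chromosome 10, 44437177 to 44528501) was much less abundant, with 9.47, 7.48 and 8.62 CPM in GFP and 6.09, 5.19 and 5.73 CPM in Ezh2-Y726D. Its log2 fold change of -0.63 (SE 0.121, edgeR adjusted P = 1.49e-04) was the lowest of the 10, with an interval of -0.88 to -0.39 (95%) that contains the value of Otx2. GFP replicates 2 and 3 held only 58 and 52 reads of Prdm1. All libraries were also thinned to the depth of the shallowest in a single random draw, an alternative chosen after the data were seen. In that draw the log2 fold change of Prdm1 was -0.39 with an adjusted P of 0.128 from edgeR. Without GFP replicate 1 or without Ezh2-Y726D replicate 2 it was -0.49 and -0.58 and did not reach the fold change of a DEG.

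Rorb (ENSMUSG00000036192, chromosome 19, 18930605 to 19111196), an orphan nuclear receptor upstream of Nrl in rods, was the member that rose. It was at 186, 207 and 195 CPM in GFP and at 213, 222 and 232 CPM in Ezh2-Y726D. All Ezh2-Y726D libraries were above all GFP libraries, with a log2 fold change of 0.19 (SE 0.0439, edgeR adjusted P = 0.0014), or 13.9%.

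Neither rod regulator passed the test, and the call of Nrl depended on the processing. Nrl (ENSMUSG00000040632, chromosome 14, 55518978 to 55524981), the basic leucine zipper factor that sets rod fate, was at 137, 127 and 135 CPM in GFP and at 147, 140 and 145 CPM in Ezh2-Y726D. The groups did not overlap, as in 38.6% of all genes tested (19.7% higher and 18.9% lower in Ezh2-Y726D), but the log2 fold change of 0.11 (interval 0.02 to 0.19) had an adjusted P of 0.0522 from edgeR and did not pass. Nrl passed in 4 of the 15 alternatives, with edgeR adjusted P of 0.0195 (replicate block), 0.0338 (at least 10 counts in every library), 0.0438 (without GFP replicate 1) and 0.0473 (no filter), so whether it changed is not settled by these libraries. Nr2e3 (ENSMUSG00000032292, chromosome 9, 59942771 to 59960659) was at 56.6, 54.0 and 53.7 CPM in GFP and at 57.5, 58.9 and 59.1 CPM in Ezh2-Y726D. Its log2 fold change was 0.08 (interval -0.02 to 0.19, adjusted P = 0.267 from edgeR), and its ratio to Nrl in single libraries ran from 0.400 to 0.424 in GFP and from 0.392 to 0.419 in Ezh2-Y726D.

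Among the cone regulators, Thrb (ENSMUSG00000021779, chromosome 14, 17660261 to 18038090) was at 42.7, 39.9 and 40.1 CPM in GFP and at 42.8, 40.8 and 45.1 CPM in Ezh2-Y726D. The groups overlapped, and the interval of the log2 fold change, -0.07 to 0.18, leaves room for a small difference in either direction (estimate 0.06, adjusted P = 0.552 from edgeR). Counts per gene do not separate the cone isoform of Thrb from the isoform found in other cells. Rxrg (ENSMUSG00000015843, chromosome 1, 167598384 to 167639623) was measured with 22 to 114 reads per library. Its levels were 3.999, 2.84 and 4.64 CPM in GFP and 4.28, 3.58 and 3.83 CPM in Ezh2-Y726D, and its interval of -0.32 to 0.36 is wide enough that a difference of the size of Neurod1 was not detectable at this depth.

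Sall3 (ENSMUSG00000024565) was at 4.49, 3.87 and 3.81 CPM in GFP and at 2.89, 3.82 and 2.85 CPM in Ezh2-Y726D. Ezh2-Y726D replicate 2 reached the level of GFP replicate 3, and the other Ezh2-Y726D libraries were below. Its log2 fold change of -0.43 (interval -0.78 to -0.08) had an adjusted P of 0.0602 from edgeR. It passed in 4 of the 15 alternatives, and with 1 library left out it ranged from -0.29 (adjusted P = 0.458 from edgeR, without GFP replicate 1) to -0.56 (0.0258, without Ezh2-Y726D replicate 2). It was -0.35 (0.214) without Ezh2-Y726D replicate 3, and DESeq2 gave an adjusted P of 0.354, so whether it changed is not settled by these libraries.

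**Figure D2:**
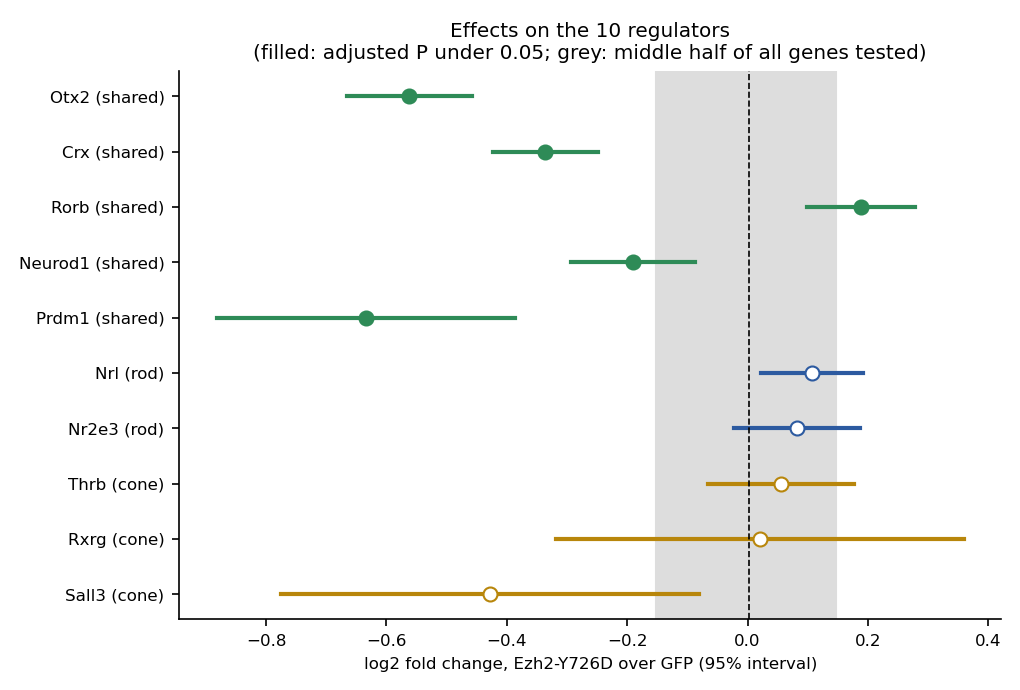
Log2 fold change of each factor, Ezh2-Y726D over GFP (x axis), with its 95% interval, filled where the adjusted P was under 0.05, over the interquartile range of all genes tested in grey (-0.15 to 0.15) and their median (dashed). The shared factors Otx2, Crx, Neurod1 and Prdm1 lie to the left and Rorb to the right, while the intervals of Nr2e3, Thrb and Rxrg include 0.

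Set side by side, Otx2 and Crx were lower relative to Nrl in every Ezh2-Y726D library, and Sall3 was lower relative to Thrb. The CPM ratio of Thrb to Nrl was 0.307 ± 0.00776 in GFP and 0.298 ± 0.0112 in Ezh2-Y726D (SD, n = 3 libraries each), with overlapping libraries. Libraries also overlapped for Rorb to Nrl, at 1.48 ± 0.136 and 1.54 ± 0.0784 (SD, n = 3 libraries each). The same held for Neurod1 to Crx, at 0.334 ± 0.0196 and 0.371 ± 0.0177 (SD, n = 3 libraries each). The ratio of Crx to Nrl went from 1.73 ± 0.130 to 1.26 ± 0.0286 and that of Otx2 to Nrl from 0.652 ± 0.0272 to 0.406 ± 0.0229 (SD, n = 3 libraries each), without overlap. The ratio of Sall3 to Thrb, both cone regulators, was 0.0991 ± 0.00536 in GFP and 0.0748 ± 0.0165 in Ezh2-Y726D (SD, n = 3 libraries each). Here the groups were barely apart, with 0.0950 in GFP replicate 3 and 0.0936 in Ezh2-Y726D replicate 2. GFP replicates 2 and 3 held only 30 and 23 reads of Sall3. These ratios do not depend on how the libraries were scaled.

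Levels of different genes were compared as CPM per kb of exon, with the merged exons of GENCODE vM21 as the length. In GFP, Crx was the most abundant of the 10 at 73.0 ± 4.63 CPM per kb (SD, n = 3 libraries), followed by Neurod1 (28.1), Nrl (23.4), Otx2 (20.5), Rorb (17.7), Nr2e3 (16.3), Thrb (5.52), Rxrg (1.67), Prdm1 (1.53) and Sall3 (0.542). Of the neighbours in this order, Rorb and Nr2e3 overlapped between libraries, as did Rxrg and Prdm1, and the other neighbours did not. After Ezh2-Y726D overexpression Crx was still first at 57.4 ± 0.531 CPM per kb (SD, n = 3 libraries), and Otx2 stood sixth, at 13.8, behind Nrl (25.3), Neurod1 (24.7), Rorb (20.1) and Nr2e3 (17.4). Nrl and Neurod1 overlapped there, and no other neighbours did.

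**Figure D3:**
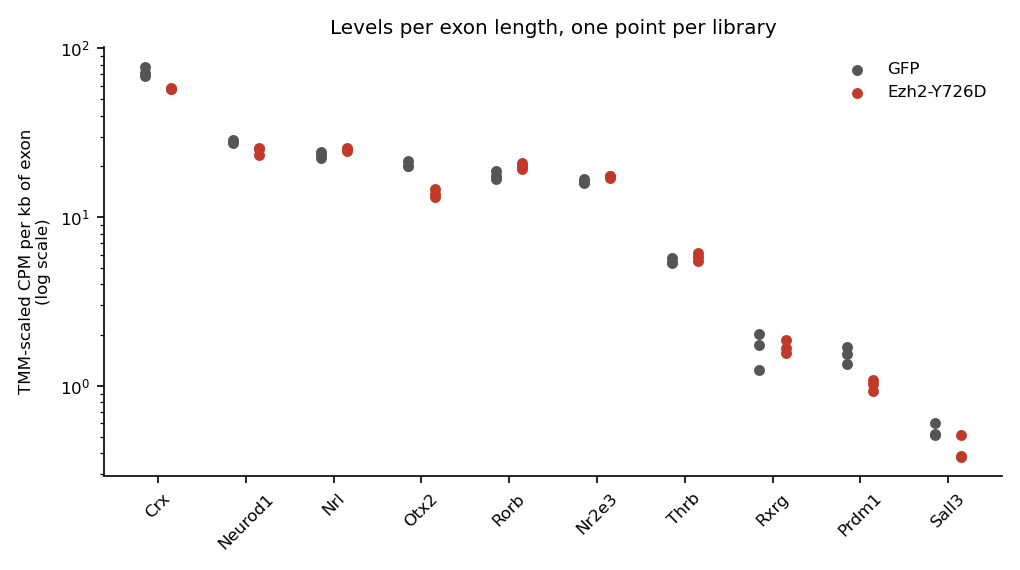
Level of each factor in TMM-scaled CPM per kb of exon (log y axis), with 1 point per library in GFP (grey) and Ezh2-Y726D (red), ordered by the GFP mean. The factors span from 73.0 (Crx) to 0.542 (Sall3) in GFP, and Otx2 falls from above Rorb and Nr2e3 to below both.

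The genes that these factors control in rods and cones were followed as lists. Of 22 rod genes, all tested, 6 were higher and 2 lower at an adjusted P under 0.05, 14 did not pass, and the median log2 fold change was 0.03. Of 16 cone genes, 11 were lower, none was higher and 5 did not pass, with a median of -0.54. Over all genes tested the median was 0.00 and 27.5% passed. The summed level of the cone genes ran from 1002 to 1031 CPM in GFP and from 750.1 to 784.5 CPM in Ezh2-Y726D, without overlap. That of the 21 rod genes plotted here ran from 6126 to 6414 CPM in GFP and from 6221 to 6567 CPM in Ezh2-Y726D, with overlap. The sum over all 22 rod genes did not overlap and was higher in every Ezh2-Y726D library than in any GFP library. The count of rod genes depended on single libraries and was 5 without GFP replicate 1, 5 without GFP replicate 2 and 4 without Ezh2-Y726D replicate 3, against 10 to 12 cone genes with any library left out.

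Among the cone genes, Opn1sw (S-opsin) was at 159, 149 and 163 CPM in GFP and at 98.7, 98.7 and 105 CPM in Ezh2-Y726D, a log2 fold change of -0.64 (SE 0.0431, edgeR adjusted P = 3.14e-12). Exons of Calu overlap 15.5% of its exonic bases. Opn1mw (M-opsin), which needs Thrb, had a log2 fold change of -0.39 (SE 0.0606). Gnat2 and Pde6c, the transducin and phosphodiesterase subunits of cones, had log2 fold changes of -0.72 and -0.69, and Gnb3, a G protein subunit that bipolar cells share, one of -0.43. All of these passed the test while Thrb, at 40.9 ± 1.56 and 42.9 ± 2.14 CPM (SD, n = 3 libraries each), did not.

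Among the rod genes, Slc24a1 and Cnga1, the exchanger and channel of the rod outer segment, were higher by 0.22 and 0.19 on the log2 scale. Gngt1, the gamma subunit of rod transducin, was lower with a log2 fold change of -0.34 in edgeR, but DESeq2 gave it an adjusted P of 0.0606, and without GFP replicates 2 and 3 edgeR gave -0.16 with an adjusted P of 0.073. Cnga1 did not pass without GFP replicate 1 (adjusted P = 0.0828 from edgeR) or without Ezh2-Y726D replicate 3 (0.0645), and with the thinned counts its log2 fold change was 0.081 (0.404).

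**Figure D4:**
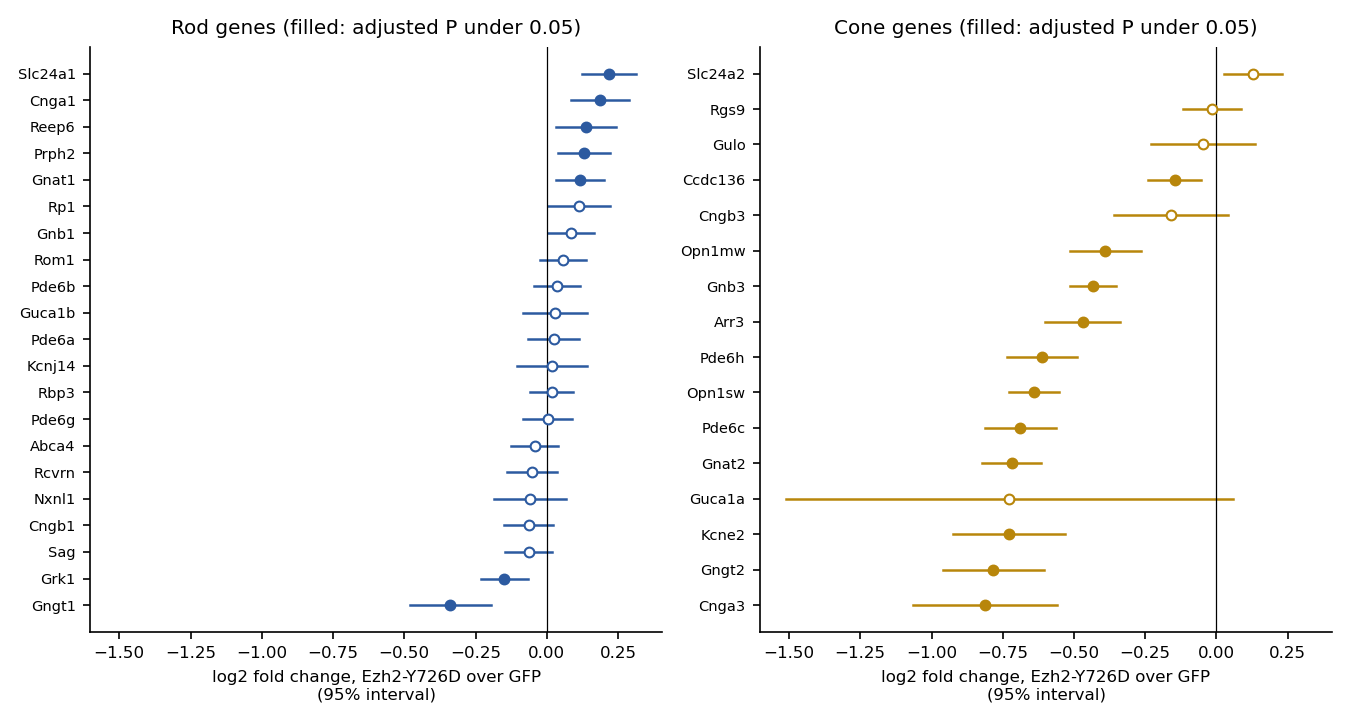
Log2 fold change, Ezh2-Y726D over GFP (x axis), with its 95% interval for 21 of the 22 rod genes and 16 cone genes, filled where the adjusted P was under 0.05. The rod genes lie around 0 between -0.34 and 0.22, and 11 cone genes lie below 0 with filled points.

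A further 25 factors that act in photoreceptors or their precursors were listed, of which 23 were tested, and Foxn4 and Olig2, with at most 1 read in any library, were not. Of the 23, 7 were higher and 3 lower at an adjusted P under 0.05, with a median log2 fold change of 0.03. Of all genes tested 13.9% were higher and 13.6% lower. The share of lower factors was therefore close to that of all genes, and the share of higher factors was above it. Pax6, which is kept on in amacrine cells and RGCs, was higher, at 355 ± 10.9 CPM in GFP and 478 ± 9.24 CPM in Ezh2-Y726D (SD, n = 3 libraries each, adjusted P = 1.48e-09 from edgeR). Six3, Meis2 and Nr1d1 rose by 0.46, 0.36 and 0.25 on the log2 scale. Ikzf1, which is also a lymphocyte gene, was lower with a log2 fold change of -0.74. Samd7, a Polycomb-associated protein of rods that restrains cone genes, was at 26.9 ± 1.04 and 22.9 ± 1.33 CPM (SD, n = 3 libraries each) with a log2 fold change of -0.22 (adjusted P = 0.0154 from edgeR). It is named here after its value was seen.

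Genes of other cell types that make these factors were followed in the same comparison, in which 27.5% of all genes passed. Of 12 bipolar genes, 10 were lower and 1 higher, and their summed level ran from 1303 to 1317 CPM in GFP and from 1042 to 1058 CPM in Ezh2-Y726D, beside the lower Otx2 and Crx. Of 10 amacrine genes tested, 9 were higher and none lower, with summed levels of 1348 to 1493 and 2092 to 2169 CPM, beside the higher Rorb and the lower Neurod1. Of 7 horizontal cell genes tested, 2 were lower and none higher, with summed levels of 392.9 to 424.9 and 346.4 to 360.4 CPM, beside Sall3, which horizontal cells also make, a share close to that of all genes. All 12 T cell genes, 5 of 9 tested B and plasma cell genes and 8 of 11 myeloid genes were lower (1 myeloid gene was higher), beside the lower Prdm1. Their summed levels ran from 189.1 to 192.1, 61.8 to 68.7 and 969.5 to 1076 CPM in GFP and from 108 to 117.2, 50.6 to 53.7 and 460.9 to 542.3 CPM in Ezh2-Y726D. Lyz2 (lysozyme of macrophages and neutrophils), named after its values were seen, carried most of the myeloid difference, with means of 506 and 118 CPM, and without it the myeloid sums ran from 497.8 to 552.5 and from 357.1 to 419.5 CPM. Among these lists, Tnfrsf17 was the gene at or under 3 counts in every library of a group. The part of these cell types in the changes of the factors was not tested.

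Of the scalings tried, library totals turned the sign of 3 factors, whereas RLE factors and library totals without CT010467.1 turned none. Scaling by library totals moved the median over all genes tested (log2) from 0.00 to 0.49, and with it Crx, Neurod1 and Sall3 had values of 0.18, 0.31 and 0.07 and none of the 10 passed in edgeR (0 also at an unadjusted P under 0.05). Relative to that median, Otx2 was at -0.55, Crx at -0.31, Neurod1 at -0.18, Prdm1 at -0.63 and Rorb at 0.21. Under the other 14 alternatives, Otx2 ranged from -0.61 to -0.53, Crx from -0.38 to -0.26, Neurod1 from -0.29 to -0.15 and Rorb from 0.14 to 0.26, and each passed in all of them.

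**Figure D5:**
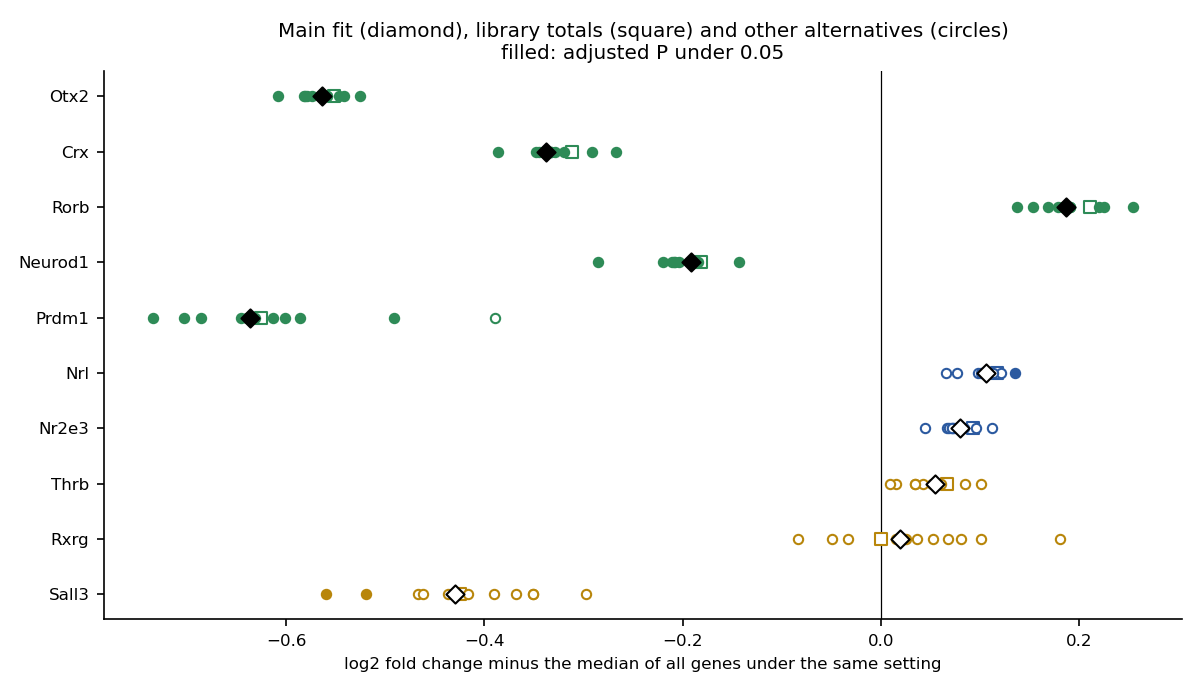
Log2 fold change of each factor minus the median of all genes under the same setting (x axis), for the reported fit (diamond), library totals (square) and the other alternatives (circles), filled where the adjusted P was under 0.05. Otx2, Crx, Neurod1 and Prdm1 stay left of 0 and Rorb right of 0 on this relative scale, and Rxrg lies on both sides.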

How the data were processed

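The values the authors deposited are unnormalized read counts for each gene in 6 RNA-Seq libraries, prepared with a kit that keeps strand. The submitters' processing notes name STAR 2.7.0d and GRCm38. The counting tool, the annotation and the use of strand are not given in the sources used here, so reads in exons shared with another gene are uncertain. Columns were assigned to samples by their names.

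The counts were scaled by TMM (factors 0.647 to 1.31) and tested with edgeR 4.0.16 in R 4.3.3 (quasi-likelihood test, filterByExpr with a minimum of 10 and a total of 15 counts, no block), with Benjamini-Hochberg adjustment over 18138 genes. CPM values are those of the TMM-scaled library. Standard errors were derived from the fold change and its F statistic. Symbols were found for 32325 genes, and lengths, coordinates and overlaps come from GENCODE vM21. Upstream sequences are from RefSeq (GRCm38.p6), which gave none used here for Sall3. The named genes are the 10 members, the 6 other regulators and the 4 rod and 4 cone genes with the lowest adjusted P, Opn1sw, Opn1mw and Ezh2. Some genes that this rule or the lists hold are counted but not reported here by name. The members and lists were chosen with earlier results of these data known. Septin4 was read as Sept4, and Ptf1a was not found by symbol. The alternatives were RLE factors, library totals with and without CT010467.1, DESeq2 1.42.0, a filter of at least 10 counts in all libraries, none at all, a replicate block and each library left out. Leaving out both GFP replicates 2 and 3 was added after seeing the data, with the single GFP library assumed to vary like the others. A single random thinning to 4460732 counts was added then as well. The fit was tested on simulated counts.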

Additional observations from a re-analysis of the deposited data

How the results depend on the processing

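Of the 10 factors, 4 to 7 passed an adjusted P under 0.05 in edgeR or DESeq2 under every alternative but library totals, where 0 passed. With library totals 0 of the other photoreceptor regulators, 0 rod genes and 0 cone genes passed as well (6, 0 and 0 at an unadjusted P under 0.05 in edgeR), 0 factors were DEGs, and the values of Sall3, Crx, Neurod1, Gngt1, Gnb3 and Opn1mw turned to 0.067, 0.18, 0.31, 0.17, 0.065 and 0.11, all below the median of 0.49 of all genes. Leaving out 1 library gave 5 to 6 factors, 0 to 2 DEGs among them (0 without GFP replicate 1 or Ezh2-Y726D replicate 2, 2 without Ezh2-Y726D replicate 3, where Otx2 joined Prdm1), and 4 to 9 rod genes. With the thinned counts Otx2 and not Prdm1 was the DEG. Rxrg ranged from -0.081 to 0.10 with 1 library left out and was -0.030 without GFP replicates 2 and 3. Rod genes that passed numbered 5 without these 2 libraries and 5 when CT010467.1 was taken out of the library totals used for scaling. The cause was not tested. With the replicate number as a block, 5222 of all genes passed against 4988, and of the factors 6, with Nrl at 0.11 (adjusted P = 0.0195 from edgeR) as the addition. The labels do not say that a number marks a shared mouse or day. Deviations of same-numbered libraries correlated at 0.0723, 0.0342 and 0.0238, and every library correlated best with its own number, which is a hint from the data only. Depth limited Rxrg, Sall3 and Prdm1, which had 22 to 270 reads per library.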

Other observations

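Among 11 RGC genes tested, 2 were higher (Pou4f1 at 0.41 and Thy1 at 0.13 on the log2 scale) and 1 lower (Isl1 at -0.58) at an adjusted P under 0.05 in edgeR, a share close to the 27.5% of all genes. These genes were named after their values were seen. The list had a median log2 fold change of -0.07 and summed levels of 476.1 to 486.4 CPM in GFP and 453.7 to 490.7 CPM in Ezh2-Y726D. Müller glia genes had a median of -0.05, with 2 higher and 2 lower of 8. Horizontal cell genes, of which 7 were tested, had 2 lower (Prox1 and Tpm3, neither confined to horizontal cells) and none higher, with 0 DEGs, and endothelial genes had 3 lower of 9.

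The genes whose 6 values, as log2(CPM + 0.5) centred on the mean of the gene, lay nearest to those of Crx among 16053 genes with a mean of at least 1 CPM were Cacna1f, Gas2l3 and Gbp2b, at distances of 0.0508, 0.0521 and 0.0594. Cacna1f encodes the calcium channel of photoreceptor and bipolar synapses. For Nrl they were Exoc3, Stoml1 and Arl2bp (0.0313, 0.0353 and 0.0395) and for Thrb they included Ndfip2 and Znrf1 (0.0505 and 0.0540).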
